A study of Homo sapiens with 3 samples.

Results

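The regions described here are clusters of RNA contact reads that the authors' own annotation placed in no gene and no repeat. They were chosen as every cluster with the annotation class "NoAnnotation" in each of the 3 deposited lists, and they numbered 7205 of 115227 clusters. WT replicate 1 (WT1 from here on) held 5460 of 87230, WT replicate 2 (WT2) held 1619 of 27155 and the knockout (KO) library held 126 of 842. The study used PAR-CLIP, which crosslinks a protein to RNA that carries 4-thiouridine and reads the crosslinked base as a T-to-C change, to map contacts of MATR3 in HAP1, a human cell line that is nearly haploid and descends from KBM-7 chronic myeloid leukaemia cells. Both WT libraries came from wild-type HAP1 cells and the KO library from a purchased HAP1 MATR3 knockout line, which serves as the negative control. No drug or time course was recorded, and all libraries were recovered on anti-FLAG beads, with no tag on MATR3 given in the labels. With 1 KO library, from 1 line, no test between genotypes was possible, and the KO values below describe that library.

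MATR3 is an abundant protein of the nuclear matrix with RNA recognition motifs and zinc fingers, known for binding pyrimidine-rich stretches of introns. Transcription by RNA polymerase II runs on past the site where an mRNA is cleaved, so nuclear RNA can hold sequence from beyond a gene's annotated end. RNase T1, used here to trim the RNA, cuts after G.

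The sequences of 2 WT sites outside the mitochondrial genome are shown first as examples found in both WT libraries. They are 2 of the 6 nuclear pairs among the top 8 of such pairs by the geometric mean of their reads, and the others, of which 3 lay in ARHGAP35, are given by their reads below. Coordinates are of hg38, the build listed in the submitters' processing notes. The first, chr7:112478417-112478451 on the plus strand, lay 1.21 kb after the end of IFRD1, which encodes a transcriptional co-regulator. The second, chr2:183184881-183184914 on the plus strand, lay inside LOC124906103, a RefSeq gene whose strand was not determined here. Capitals mark bases inside both WT clusters.
After IFRD1: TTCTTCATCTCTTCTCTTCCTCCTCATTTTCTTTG
In LOC124906103: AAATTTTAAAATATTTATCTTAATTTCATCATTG
Both sequences end in G. The site after IFRD1 holds the pyrimidine word TTTCT. The other holds ATCTT, which none of the 3 ARHGAP35 pairs holds in the bases shared by both WT clusters. In those bases the ARHGAP35 pair at chr19:46862586-46862619 holds TCTTT and TTTTT. The other ARHGAP35 pairs hold none of the 8 words searched. The longer WT1 clusters of the 3 pairs were not searched beyond the shared bases.

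The 5 unannotated KO clusters with the most reads are shown beside them, because they share a 3′ tail that many KO clusters carry. They lay at chr1:95317543-95317588 (plus strand), chr6:124519407-124519452 (minus), chr14:37826204-37826249 (minus), chr11:119191846-119191888 (plus) and chr11:18987968-18988013 (minus). Capitals mark TGG or TGGAA within the last 12 bases.
KO chromosome 1: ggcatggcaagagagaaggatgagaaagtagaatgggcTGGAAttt
KO chromosome 6: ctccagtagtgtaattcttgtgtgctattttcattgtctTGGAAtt
KO chromosome 14: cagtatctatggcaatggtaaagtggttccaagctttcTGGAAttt
KO chromosome 11, plus strand: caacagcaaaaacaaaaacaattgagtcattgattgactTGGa
KO chromosome 11, minus strand: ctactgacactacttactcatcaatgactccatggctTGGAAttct
None of the 5 ended in G. They held 842, 694, 681, 663 and 633 reads, in the order shown.

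Unannotated clusters made up 6.26% of clusters in WT1 and 5.96% in WT2 (mean 6.11% ± 0.210, SD, n = 2). They made up 14.96% of KO clusters (95% Wilson interval 12.7 to 17.5), and 10.8% when KO and WT clusters with TGG in the last 12 bases were left out. All intervals here are of this kind and cover counting error only. Median reads per cluster were 18 (quartiles 10 and 28) in WT1, 36 (14 and 77) in WT2 and 218 (111 and 393) in KO. The lists hold called clusters only, so the libraries' sequencing depth is unknown. MATR3 itself had 53, 26 and 0 clusters in WT1, WT2 and KO. Of the genes joined in the BCR-ABL1 fusion of the parent line, ABL1 had 5, 2 and 0 clusters and BCR had 0 in each, and such lists do not measure RNA level.

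In WT cells the unannotated clusters were often strung along one strand. A run was defined as 3 or more of them on a strand with gaps of at most 100 kb. WT1 had 487 runs that held 2870 clusters (52.6%, interval 51.2 to 53.9), and WT2 had 104 runs with 560 clusters (34.6%, 32.3 to 36.9). KO had 1 run, on the mitochondrial genome, with 5 clusters (3.97%, 1.71 to 8.95). KO held no nuclear run, and 117 of its 126 clusters stood alone. With gaps of at most 10 kb, 36.5% of WT1 and 20.6% of WT2 clusters were in runs. Repeat clusters outside genes, measured the same way, were in runs at 36.4% in WT1, 17.9% in WT2 and 0% in KO. The share in runs can rise with the number of clusters, so the 126 clusters with the most reads were also compared across libraries. Of these, 41 were in runs in WT1 (32.5%, 24.98 to 41.1), 19 in WT2 (15.1%, 9.87 to 22.4) and 5 in KO.

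**Figure D1:**
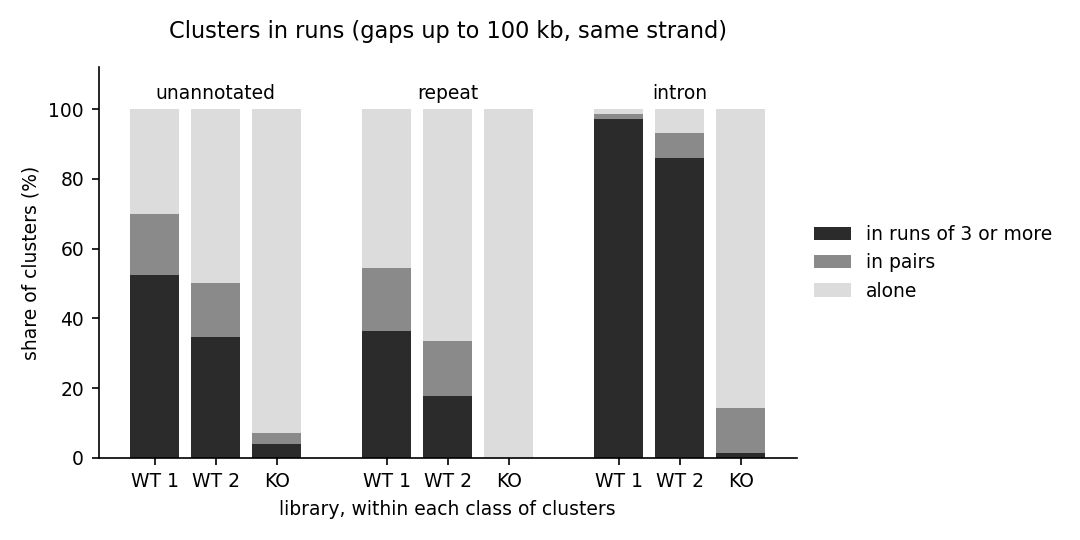
Share of clusters (%) in runs of 3 or more, in pairs and alone, by library, for unannotated, repeat and intron clusters. Unannotated clusters were in runs at 52.6% and 34.6% in the WT libraries and 3.97% in KO, between repeat and intron clusters in both WT libraries.

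Most runs of WT2 lay where WT1 also had a run. Of its 104 runs, 87 overlapped a run of WT1 (83.7%, 75.4 to 89.5), and those were met by 87 of the 487 runs of WT1 (17.9%, 14.7 to 21.5). Of WT2 clusters, 69.8% had an unannotated cluster of WT1 within 100 kb on the strand, and 43.5% in the other direction. For KO clusters the share within 100 kb of an unannotated cluster of either WT library was 41.3% (33.1 to 50). WT1 holds more clusters than WT2, so the shares in the 2 directions are not alike by construction. Of WT2 unannotated clusters, 36.2% (33.9 to 38.6) met a run of WT1, and of KO ones 16.7% (11.2 to 24.1). No shares of these kinds are given here for intron or repeat clusters.

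The run with the most clusters in WT1 was on the minus strand of chromosome X, before MIR222HG, the host transcript of miR-221 and miR-222, and after LINC02595. It held 56 unannotated clusters with 2329 reads in WT1 (6 to 185 per cluster, median 32) and 22 with 1526 reads in WT2 (8 to 340, median 43.5). KO had 1 cluster there, with 86 reads. The run of WT1 ended 3.31 kb before the RefSeq start of MIR222HG. A further 13 repeat clusters in each WT library lay in its span, which reached from 45773576 to 45846292. Of its clusters, 11 in each WT library overlapped the other WT library.

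On chromosome 12 a run began just past AEBP2, which encodes an accessory subunit of Polycomb repressive complex 2. It held 41 clusters in WT1, 10 in WT2 and 1 in KO, with 2316, 584 and 189 reads. In WT1 it began 0.13 kb after the gene's end and reached 101 kb beyond it. AEBP2 itself had 48 annotated clusters in WT1, 8 in WT2 and 1 in KO. Of the 41 clusters of WT1, 0 overlapped a cluster of WT2, and 1 of the 10 of WT2 overlapped a cluster of WT1. Over the 3 libraries, 22 clusters of this run lay inside LOC101928387, a RefSeq gene whose strand was not determined here.

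The run with the most clusters in WT2 followed TMX1, a thioredoxin-like protein of the endoplasmic reticulum membrane, on the plus strand of chromosome 14. WT1 held 31 clusters there, WT2 held 25 and KO held 0. Their reads came to 1257 in WT1 (6 to 198 per cluster, median 22) and 948 in WT2 (7 to 157, median 24). The run began 0.726 kb after the gene's end in WT1 and 0.853 kb after it in WT2. It reached 68.2 kb and 113 kb beyond, and 2 of its clusters in each library overlapped the other. Over the 3 libraries, 6 clusters of this run lay inside LOC124903315, another RefSeq gene. Its span also held 16 clusters of other classes in WT1, of which 15 were repeat clusters, and 4 in WT2, of which 1 was. Clusters with an annotation other than repeat reached 80.9 kb past the end of TMX1 in WT1 and 97.7 kb in WT2.

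A run of a different kind lay wholly within a RefSeq gene. On the plus strand of chromosome 4, 41 clusters of WT1 and 14 of WT2 lay inside FAM193A, with 1186 and 701 reads, and KO had 0. They lay 10.1 to 84.7 kb after the RefSeq start in WT1. The clusters the authors did assign to FAM193A, 19 in WT1 and 10 in WT2, lay farther along the gene, from 95.9 kb in WT1 and 113 kb in WT2. ARHGAP35 likewise held a chromosome 19 run, whose span held 24 clusters in WT1, 18 in WT2 and 0 in KO. There 8 and 11 clusters overlapped the other WT library.

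Another 2 nuclear runs were named by size. Around ZNF460, a zinc finger gene of chromosome 19, there were 20 clusters with 1392 reads in WT1 and 16 with 3220 reads in WT2. KO had 0 clusters there. Past SNHG8, a host gene of a small nucleolar RNA on chromosome 4, WT1 had 31 clusters with 1017 reads, WT2 had 0 and KO had 1 with 158 reads. Over the 3 libraries, 20 clusters of this run lay inside PRSS12, which encodes the protease neurotrypsin, on the strand opposite to that gene.

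**Figure D2:**
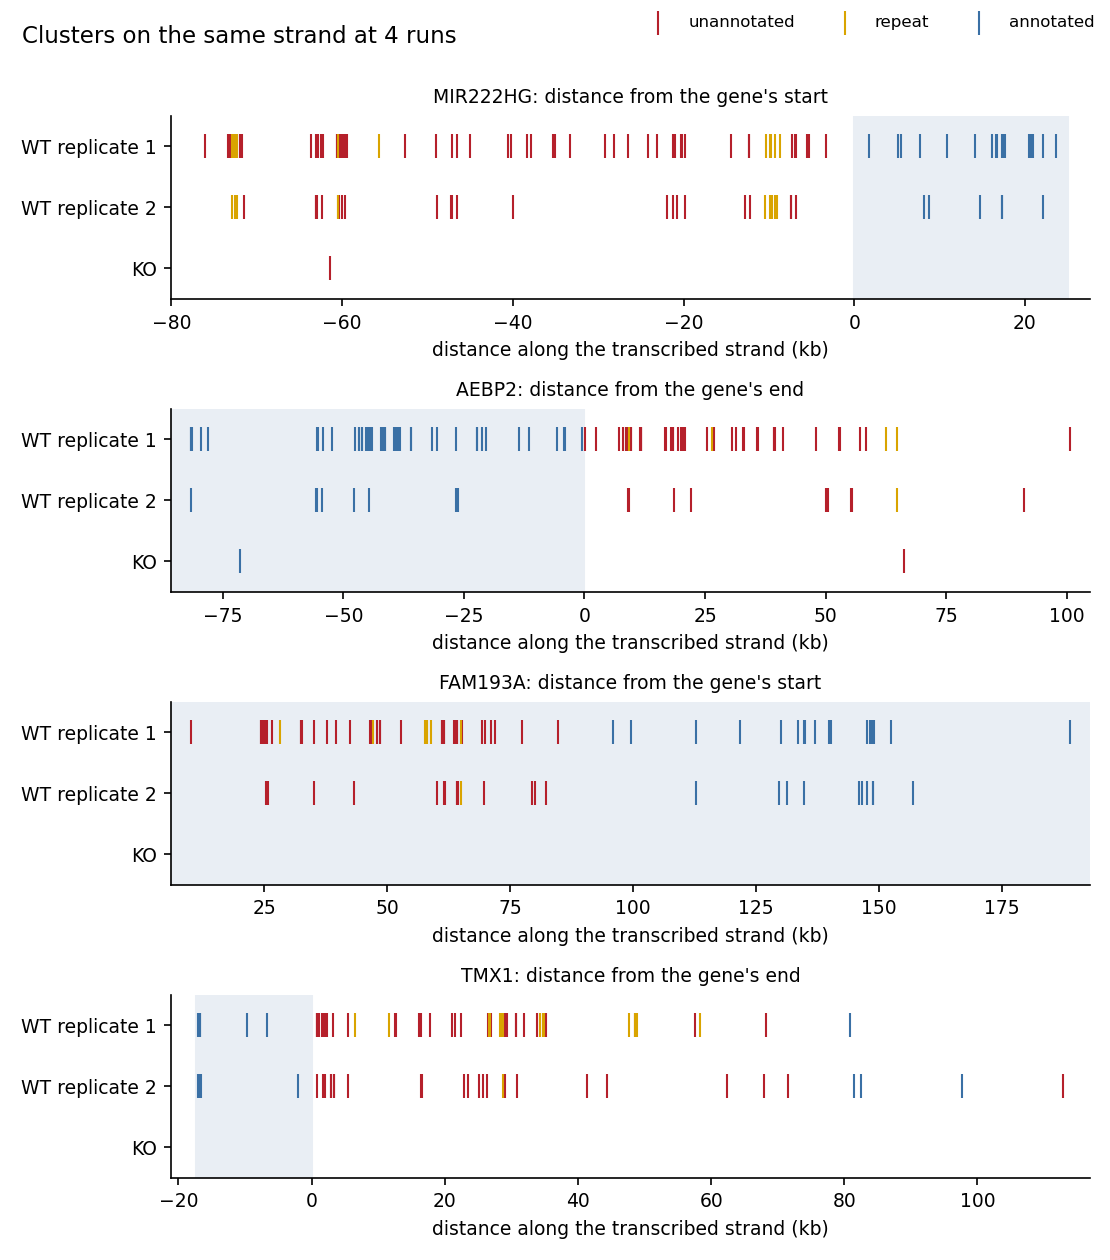
Clusters on the strand of each run at 4 runs, placed by distance (kb) from the start or end of the named gene (shaded), each tick 1 cluster, in 3 libraries. Red ticks are unannotated clusters, yellow are repeat clusters and blue are clusters with another annotation. Red ticks fill the stretch before MIR222HG and after AEBP2 and TMX1, with blue ones also past TMX1. Within FAM193A the red ticks lie before the blue ones.

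Against a later gene list, the label of the class held only in part. Positions were compared with RefSeq genes of GRCh38.p14, in which 48.2% of genes could be given a strand. That share was 85.5% for protein-coding and 62.9% for long non-coding RNA genes. Of the unannotated clusters, 16.9% in WT1, 18.7% in WT2 and 11.1% in KO lay inside a RefSeq gene on its own strand. Protein-coding genes took 74.8%, 73.6% and 64.3% of those, and nearly all the others lay in long non-coding RNA genes. Genes of undetermined strand are left out of this split, so it does not give the gene types of all such clusters. A further 9.58%, 9.02% and 7.94% of unannotated clusters lay inside a gene whose strand was not determined. Clusters inside genes only on the opposite strand made up 17.3%, 13.2% and 24.6%. Lying inside a later RefSeq gene was not particular to this class. Repeat clusters lay inside such a gene on its own strand at 28.7% in WT1, 29.1% in WT2 and 25.7% in KO (9 of 35).

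Among the other WT clusters, those shortly after a gene's end outnumbered those shortly before a gene's start. Within 10 kb after an end on the same strand, and in no RefSeq gene, were 1282 clusters of WT1 (23.5%, 22.4 to 24.6) and 358 of WT2 (22.1%, 20.2 to 24.2). Within 10 kb before a start were 122 (2.23%) and 32 (1.98%). In KO the counts were 12 (9.52%, 5.53 to 15.9) after an end and 5 (3.97%, 1.71 to 8.95) before a start. That classification looks for gene ends first, so both distances were also measured with no order, over clusters outside genes of their own or undetermined strand. By that count 41.4% and 36.6% of WT clusters lay within 10 kb after an end, against 12.2% and 8.97% before a start. The KO shares were 19.8% and 14.6% of 96 clusters. The excess after ends was not particular to this class. WT repeat clusters, measured with no order, gave 37.3% and 32.6% after an end, against 12.2% and 12.5% before a start. In the ordered classification 16.4% and 16.9% of WT repeat clusters lay after an end, against 2.62% and 3.99% before a start.

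**Figure D3:**
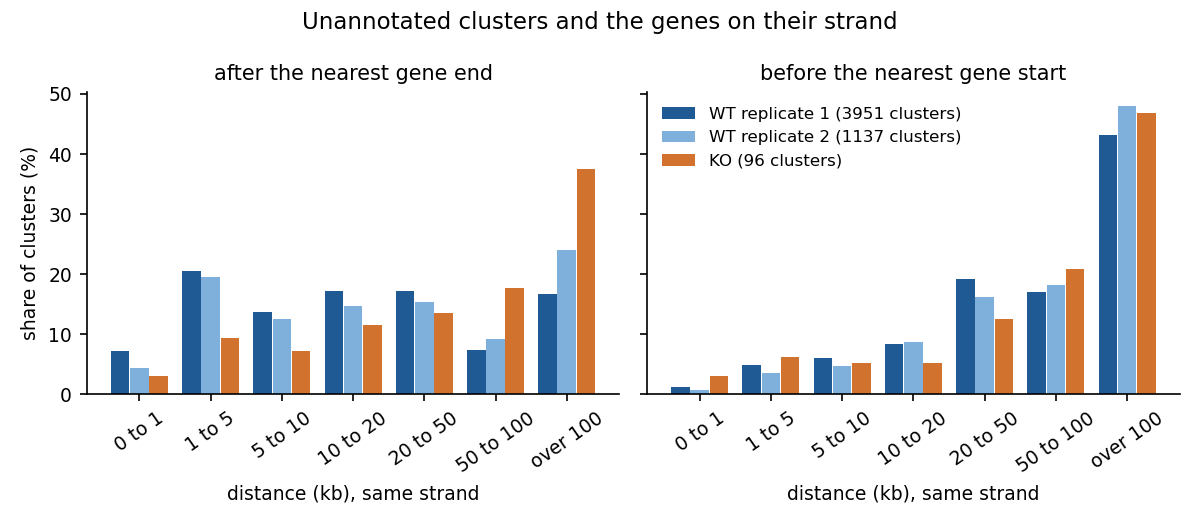
Share of unannotated clusters (%) by distance (kb) after the nearest gene end and before the nearest gene start on the same strand, for clusters outside genes of that or undetermined strand. Up to 10 kb, WT bars are taller after ends (41.4% and 36.6% in sum) than before starts (12.2% and 8.97%), while the KO sums are 19.8% and 14.6%.

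Genes followed by WT clusters were mostly genes that carried annotated clusters in the same library. In WT1 this held for 614 of 776 such genes (79.1%), against 30.1% of all 28653 genes with a strand. In WT2 it held for 181 of 267 (67.8%), against 20.5%. In KO it held for 0 of 12, against 2.12%. Some strands were themselves read from annotated clusters. With strands from RefSeq promoters alone the WT shares were 72.0% of 692 genes and 58.8% of 238, against 24.9% and 16.9% of all genes, and the KO share was 0 of 9. The WT libraries had 136 of these genes in common, 17.5% of those of replicate 1 and 50.9% of those of replicate 2.

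The genes with the most downstream clusters over both WT libraries had varied functions. ZNF460 was followed by 17, 12 and 0 clusters in WT1, WT2 and KO, and PUM3, of the Pumilio family of RNA-binding proteins, by 16, 7 and 0. POMK, a kinase that phosphorylates O-mannose on dystroglycan, was followed by 13, 9 and 1. TMX1 was followed within 10 kb by 10, 10 and 0, and PDCD10, a scaffold protein mutated in cerebral cavernous malformation, by 11, 6 and 0. KDM3A, a demethylase of histone H3 lysine 9, was followed by 15 clusters in WT1 but 2 in WT2, and RPL21, a ribosomal protein gene, by 13 and 2. The most-read unannotated cluster of WT2 outside the mitochondrial genome lay 4.97 kb after ZNF460, with 1085 reads.

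In composition the WT unannotated clusters were close to the intron clusters of the same libraries. T made up 39.8% and 41.3% of their bases (mean 40.6% ± 1.07, SD, n = 2), against 40.4% and 42.1% in introns. G made up 10.4% and 11% (10.7% ± 0.422), against 9.99% and 9.78% in introns. The remaining gap went the same way in both libraries, with T lower and G higher in unannotated clusters. The intervals for base shares take each base as independent, which bases of 1 cluster are not, so they understate the uncertainty. For T, the 2 WT libraries lay farther apart than the 2 classes within either library. The T intervals were 39.6 to 40.03 against 40.3 to 40.4 in introns in WT1. In WT2 they were 40.9 to 41.7 against 41.96 to 42.2. The intervals for G did not overlap either, in WT1 or in WT2. These class shares include the G-rich mitochondrial members described below. On assembled nuclear chromosomes, G in WT1 was 10.07% in runs, 9.66% in pairs and 10.29% in clusters alone. Those values lie on both sides of the 9.99% of WT1 introns. In WT2 they were 10.52%, 11.04% and 10.85%, all above the 9.78% of introns. KO unannotated clusters had 33.7% T and 21.2% G, and KO intron clusters had 33.2% T and 16.5% G. The last base was G in 72.1% and 93.9% of WT unannotated clusters and 52.4% of KO ones, beside 78.1% of KO intron clusters.

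Pyrimidine words followed the same pattern. ATCTT, the DNA form of a word reported for MATR3, was in 14.6% and 14.9% of WT unannotated clusters (mean 14.7% ± 0.230, SD, n = 2), against 14.8% and 15.9% of intron clusters. It was in 8 of 126 KO clusters (6.35%, 3.25 to 12.03), beside 6.48% of KO intron clusters and 7.01% of all KO clusters. TTCTT was in 29.7% and 29.3% of WT clusters and 13.5% of KO ones, and TTTCT was in 30.8%, 31.6% and 16.7%. Over all KO clusters the shares were 11.3% for TTCTT and 13.9% for TTTCT. These words were read on the cluster's strand only, and all except ATCTT were chosen with results of these data known. Among the 126 most-read clusters, ATCTT was in 21.4% in WT1 (15.2 to 29.4) and 17.5% in WT2 (11.8 to 25.02).

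Conversion was measured next. Of all T events in unannotated clusters, 8.43% and 7.68% were converted in the WT libraries (8.05% ± 0.534, SD, n = 2) and 6.31% in KO. Intron clusters gave 8.03%, 7.77% and 10.5%. Clusters in which under 50% of reads carried a T-to-C change made up 3.81% and 4.76% of WT unannotated clusters, beside 4.16% and 3.95% of all WT clusters. In KO they made up 31.7% of unannotated clusters, beside 11.6% of all KO clusters. Without clusters that hold TGG in the last 12 bases, the converted share in KO was 11.5%.

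The 3′ tail shown above in the most-read KO clusters was common among KO members. TGG stood in the last 12 bases of 54 of 126 KO clusters (42.9%, 34.6 to 51.6), against 7.23% and 7.47% in the WT libraries (7.35% ± 0.169, SD, n = 2). Over clusters of all classes it stood in 6.68%, 5.32% and 21.0% of WT1, WT2 and KO. The longer word TGGAA stood there in 27 KO clusters (21.4%), against 0.385% and 0.309% in WT, and over all classes in 0.319%, 0.302% and 6.53%. The tail words were picked after these sequences were seen. TGGAATTC begins the 3′ adapter of widely used small RNA kits, while the labels used here name no adapter. TGGAATTC itself stood in the last 12 bases of 2 KO members, 1 WT2 member and 0 WT1 members.

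Most of those KO clusters had one of 2 lengths. Of the 54 with TGG, 49 were 43 or 46 nt long, as against 4 of the 72 without it. Length 46 nt alone held 37 of the 126 KO clusters, 36 of them with TGG, and 0.385% and 0.494% of WT clusters. The 54 held 58.6% of the reads in KO unannotated clusters. Their last base was G in 14 cases (25.9%), compared with 52 of the 72 others (72.2%). G made up 24.7% of their bases and 17.5% in the others. Without them, 4.17% of KO members were in runs, 12.5% lay within 10 kb after a gene end, 5.56% held ATCTT and 34.5% of bases were T. Whether adapter sequence remained on these reads was not tested.

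Conversion in the KO clusters with TGG split by the tail. In the 10 with TGGAATTT, the reads that carried a T-to-C change made up 85.4 to 99.0% (median 94.4%). In the other 44 the median was 19.5%, and 34 of them were under 50%. Over KO clusters of all classes the low median was not seen: the 163 with TGG but not TGGAATTT had a median of 93.1%, with 71 under 50%. In the 72 without TGG the median was 96.8%, and 6 were under 50%. TGGAATTT differs from the adapter word TGGAATTC by T8C, counted from the word's 5′ end. Whether that difference bears on the changed shares was not tested. KO repeat clusters outside genes also carried TGG, at 65.7%, and KO intron clusters at 13.1%. In the 19 such repeat clusters without TGGAATTT the median changed share was 24.6%, and 11 were under 50%. In the 71 such intron clusters, of which 0 held TGGAATTT, it was 95.7%, and 19 were under 50%.

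**Figure D4:**
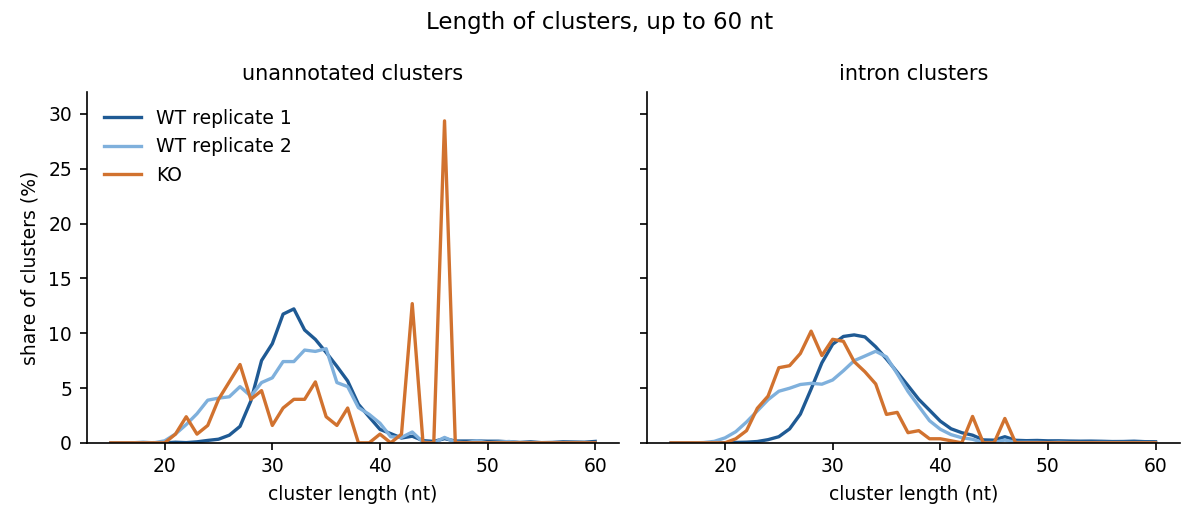
Share of clusters (%) by length (nt), up to 60 nt, for unannotated and intron clusters of 3 libraries. KO unannotated clusters peak at 43 nt (12.7%) and 46 nt (29.4%), where the WT shares lie between 0.385% and 0.988%.

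At the level of single positions, unannotated WT clusters recurred less often than clusters in general. Of WT2 members, 178 of 1619 shared at least 1 nt with a WT1 cluster of that strand (10.99%, 9.56 to 12.6), beside 19.5% of all its clusters and 20.3% of intron clusters. In the other direction it was 173 of 5460 (3.17%, 2.74 to 3.67), beside 6.00% of all clusters and 6.19% of intron clusters. Repeat clusters also recurred less often than intron clusters, at 13.7% (11.01 to 16.9) in WT2 and 3.82% (3.05 to 4.78) in WT1. In both libraries their interval overlapped that of unannotated clusters. Sharing was higher in clusters with more reads. In WT2 it went from 4.57% at 5 to 9 reads to 9 of 30 clusters at 200 or more, and in WT1 from 1.30% to 53.3% (16 of 30). At 10 to 49 reads, and from 50 to under 200, the intervals for unannotated clusters lay below those for introns in both libraries. Of the 176 overlapping WT pairs, 53 had the same start and end, 95 the same 3′ end and 89 the same 5′ end.

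**Figure D5:**
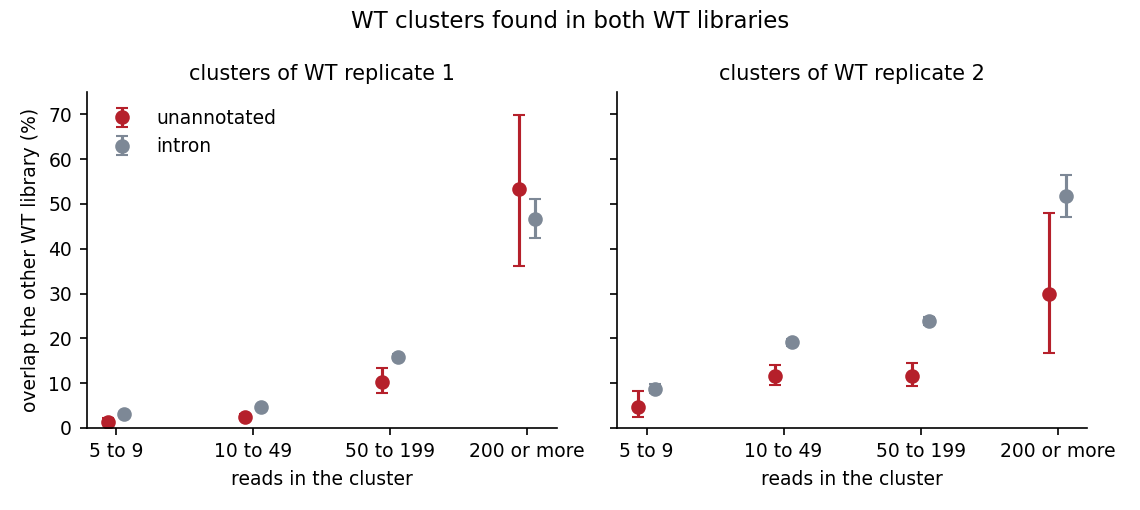
Share of WT clusters (%) that overlap a cluster of the other WT library, by reads in the cluster, for unannotated and intron clusters, with 95% Wilson intervals as bars. The unannotated share rises from 1.30% to 53.3% in WT1 and from 4.57% to 9 of 30 clusters in WT2, and lies below the intron share in all but the highest read class of WT1.

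The most-read pairs were examined one by one. The site after IFRD1 had 645 reads in WT1 and 326 in WT2, and a T-to-C change in 65.7% and 96.9% of them. The site in LOC124906103 had the same start and end in both libraries, with 294 and 255 reads and a change in 67.7% and 76.1%. The pair after POMK had 380 and 573 reads, with a change in 60.8% and 69.5%. KO had no cluster at any of the top 8 pairs. These included 3 pairs in ARHGAP35, with 734 and 168, 529 and 228, and 582 and 150 reads in WT replicates 1 and 2.

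Few KO members coincided with WT clusters. An overlap with either WT library was found for 6 of 126 (4.76%, 2.20 to 10.0), beside 6.53% of all KO clusters. Against WT2 alone it was 2 clusters (1.59%), and against WT1 alone 4 (3.17%). Conversely 5 WT1 members (0.0916%) and 2 of WT2 (0.124%) overlapped a KO cluster, beside 0.0504% and 0.0884% of all clusters. Of the 6 KO sites, 3 were mitochondrial. Another lay after POMK, where a KO cluster of 377 reads touched WT1 clusters of 15 and 28 reads. Of the remaining 2, that on the strand opposite to NANOS1 had 13 reads in KO and 18 in WT1, and that opposite to MS4A2 had 293 and 42.

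The mitochondrial members differed from the nuclear ones in sequence. There were 36 in WT1, 18 in WT2 and 6 in KO, of which 34, 16 and 5 lay on the minus strand, opposite most mitochondrial genes. G made up 29.8%, 26.5% and 27.4% of their bases, and the T-to-C changed reads of a cluster had a median share of 60.1%, 74.3% and 97.1%. The WT pair with the most reads of all members lay there, at chrM:356-406 in WT2 with 1266 reads, and in WT1 with 2161 reads. Its sequence is given on the minus strand, with capitals for bases inside both WT clusters.
Mitochondrial WT pair: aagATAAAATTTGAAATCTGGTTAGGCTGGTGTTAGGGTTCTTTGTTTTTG
A T-to-C change was carried by 51.4% and 60.7% of its reads. No KO cluster overlapped it.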

How the data were processed

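PAR-CLIP cluster lists of 2 WT and 1 KO library were used as deposited. Per the submitters' processing notes the tools include cutadapt 1.8.3 and Bowtie 1.1.2 and the builds hg38 and GRCh38.p5; the cluster caller, annotation release and filters are not given in the sources used here. The authors called clusters separately in each library. The deposited read, conversion and T-event values are whole counts, not normalised. The deposited fraction columns say how large a part of a cluster's reads carried a T-to-C change. The deposited score columns of the caller were not used.

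Members and lists were chosen with earlier results of these data known. Runs, overlaps (at least 1 nt, same strand), base shares, words and distances to RefSeq genes were computed in Python 3.11.15 with numpy 2.4.6 and pandas 2.3.3, and checked on simulated data. A gene's strand came from the RefSeq promoter table or, failing that, from the authors' clusters of that gene. Groups are given as the mean ± SD of 2 WT libraries, and shares with 95% Wilson intervals. Named are the top 8 WT pairs by geometric mean of reads and the 5 most-read clusters per library. Runs named are the 5 with the most clusters per WT library, ties kept, and every KO run. The nearest genes are named with them. Genes with the most downstream clusters were named after their values were seen. Alternatives were minimum reads or conversions, assembled chromosomes, equal numbers of clusters, each WT library left out, other gaps, distances and overlaps. Reads carry no molecular identifiers in the lists.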

Additional observations from a re-analysis of the deposited data

How the results depend on the processing

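Of 95 recomputed values, 63 stayed within the SD of the WT libraries or, where 1 library gave the value, within its Wilson interval, and the cause of the 32 that moved was not tested. With at least 3 converted positions, the WT mean share of unannotated clusters was 4.50%, their T share 42.5% (37.0% in KO), the converted share 6.79% (4.33%), the share after gene ends 27.8%, the share with ATCTT 18.5%, the overlap of WT replicate 2 with WT replicate 1 14.7%, and the KO share in runs 0%. With at least 10 reads, ATCTT was in 15.3%. With assembled chromosomes only, KO gave 0% in runs and a converted share of 6.22%. With the 126 most-read clusters per library, the WT mean was 23.8% in runs, 38.5% T, 6.46% converted, 29.0% after gene ends and 19.4% with ATCTT, while 9.52% of WT replicate 2 and 0% of KO overlapped a WT cluster of that set; the share of all clusters has no value there. A gap of 10 kb put 28.5% in runs, and runs of at least 2 held 59.96%. Medians over clusters gave 8.91% converted in WT and 8.36% in KO. Downstream distances of 5 and 50 kb gave 15.4% and 39.7% in WT, and 25.4% in KO at 50 kb. With strands from promoters alone the WT share was 19.98%. An unannotated cluster of WT replicate 1 within 100 kb was found for 69.8% of WT replicate 2. Without clusters with TGG in the last 12 bases, a choice made after seeing the data, as were the ATCTT alternatives and the promoter strands, 15.1% of WT clusters held ATCTT, and KO gave 10.8% unannotated and 11.5% converted. Leaving out 1 WT library in turn, which is not counted among the 95 values for the WT means because a mean of 2 cannot then move beyond their SD, the KO overlap was 1.59% to 3.17%, the share of unannotated clusters 5.96% to 6.26%, the share in runs 34.6% to 52.6%, T 39.8% to 41.3%, conversion 7.68% to 8.43%, the share after gene ends 22.1% to 23.5% and ATCTT 14.6% to 14.9%. No paired analysis was possible because there is 1 KO library and its label carries no replicate number. The depth of the libraries is unknown, and overlap between WT libraries was lowest among clusters of 5 to 9 reads.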
